A study of Rattus norvegicus with 16 samples.

Results

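Genes of the DNA replication machinery were followed over time in the CA1 and CA3 fields of rat hippocampal slice cultures. The genes are Mcm3, Mcm6, Rrm1, Rrm2, Pcna, Dscc1, Atad2 and Fam111a, 8 in all, and they were found by the gene symbol that the platform annotation gives to a probe set. Of these, 7 have a probe set of their own, 1 each, out of 10411 genes measured that way. Rrm2 does not: its probe set is annotated to Rrm2l1 as well, so it is described as the probe set shared by Rrm2l1 and Rrm2 and is left out of all counts.

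The study asked how these fields respond over time to oxidative stress. RNA came from organotypic slices, pieces of hippocampus kept alive in culture with their neurons and glia, and was hybridised to Affymetrix rat expression arrays after a 2-cycle amplification. The groups are CA1 and CA3 at T0 and at 30 min, 3 h and 12 h, each with 2 arrays, which makes 8 groups. The labels call the arrays of a group biological replicates but name no separate animals or cultures, so p-values measure the spread between these arrays, which may be technical. The agent of the stress, its dose, the relation of T0 to it and the age and strain of the animals were not given in the sources used here. No group is labelled as an untreated control of a later time, so time in culture and the stress cannot be told apart. Values are log2 expression levels after normalisation by the authors, and differences between groups are on the log2 scale, where -1 is a halving.

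Before a cell divides it copies its genome once. Origins of replication are licensed by loading the MCM helicase, which unwinds the DNA when S phase begins, and polymerases held to the template by the PCNA clamp then copy each strand from nucleotides that ribonucleotide reductase has prepared. Most of these genes are transcribed under E2F transcription factors as cells enter S phase and are low in cells at rest. Mature neurons do not divide, and the dividing cells of hippocampal slices are known to include microglia, glial precursors and neural progenitors. In RNA of whole tissue, fewer dividing cells and less RNA per dividing cell cannot be told apart.

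E2F binding sites are part of what is known about the promoters of these genes, and for that reason the promoters of both helicase members are printed here, from RefSeq on the GRCr8 assembly. Each runs from 250 bases before the gene's start to 50 bases after it, 5′ to 3′ in the gene's direction, with matches to TTTCCCGC, TTTCGCGC, TTTGCCGC or TTTGGCGC on either strand in capitals. The capitals in Mcm6 join overlapping matches, TTTGGCGC on the gene's strand and TTTCGCGC on the opposite strand. The Mcm3 window is chr9:30733697-30733996 and the Mcm6 window chr13:42404303-42404602, both on the minus strand.
Mcm3: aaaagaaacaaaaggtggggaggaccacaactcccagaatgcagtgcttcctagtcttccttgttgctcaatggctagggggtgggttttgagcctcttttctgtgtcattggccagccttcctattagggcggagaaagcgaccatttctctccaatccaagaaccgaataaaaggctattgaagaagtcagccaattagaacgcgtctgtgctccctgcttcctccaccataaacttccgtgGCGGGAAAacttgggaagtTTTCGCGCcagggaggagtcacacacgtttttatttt
Mcm6: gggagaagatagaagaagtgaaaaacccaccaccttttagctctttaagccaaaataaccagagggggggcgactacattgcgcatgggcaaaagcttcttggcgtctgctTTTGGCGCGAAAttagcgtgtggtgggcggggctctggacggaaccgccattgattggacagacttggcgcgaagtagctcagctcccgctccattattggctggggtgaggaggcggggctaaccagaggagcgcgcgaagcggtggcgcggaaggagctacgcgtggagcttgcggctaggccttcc

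The promoter table held 5 of the 7 genes, Mcm3, Mcm6, Rrm1, Pcna and Fam111a. At least 1 of these E2F-type words lay in 2 of the 5 (40%). These are the 2 printed above, and Rrm1, Pcna and Fam111a held no match. Such a word lay in 21 of 53 promoters of other replication genes (39.6%), in 1 of 18 promoters of mitosis genes (5.56%) and in 618 of all 27457 promoters (2.25%). The word CCAAT, also searched on both strands, lay in 5 of the 5, in 47.2% of the other replication promoters, in 66.7% of the mitosis promoters and in 37.7% of all promoters. TTTGAA, the core of an element known from promoters of mitosis genes, lay in 1 of the 5 (Fam111a), in 15.1% of the other replication, 72.2% of the mitosis and 18.1% of all promoters. These are matches of letters in a window, given as a description.

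All 7 genes were lower at each later time than at T0, in the average over both fields, and most of the difference was already there at 30 min. The median over the 7 genes was -1.16 at 30 min, -1.25 at 3 h and -1.54 at 12 h, beside -0.0016, 0.050 and -0.025 over all 15866 probe sets. The genes were chosen by these falls after T0, measured on the same arrays, so the values describe them and no test of the falls is given. In 6 of the 7, all but Pcna, each of the 12 later arrays lay below each of the 4 T0 arrays, a pattern that 0.901% of all probe sets share.

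**Figure D1:**
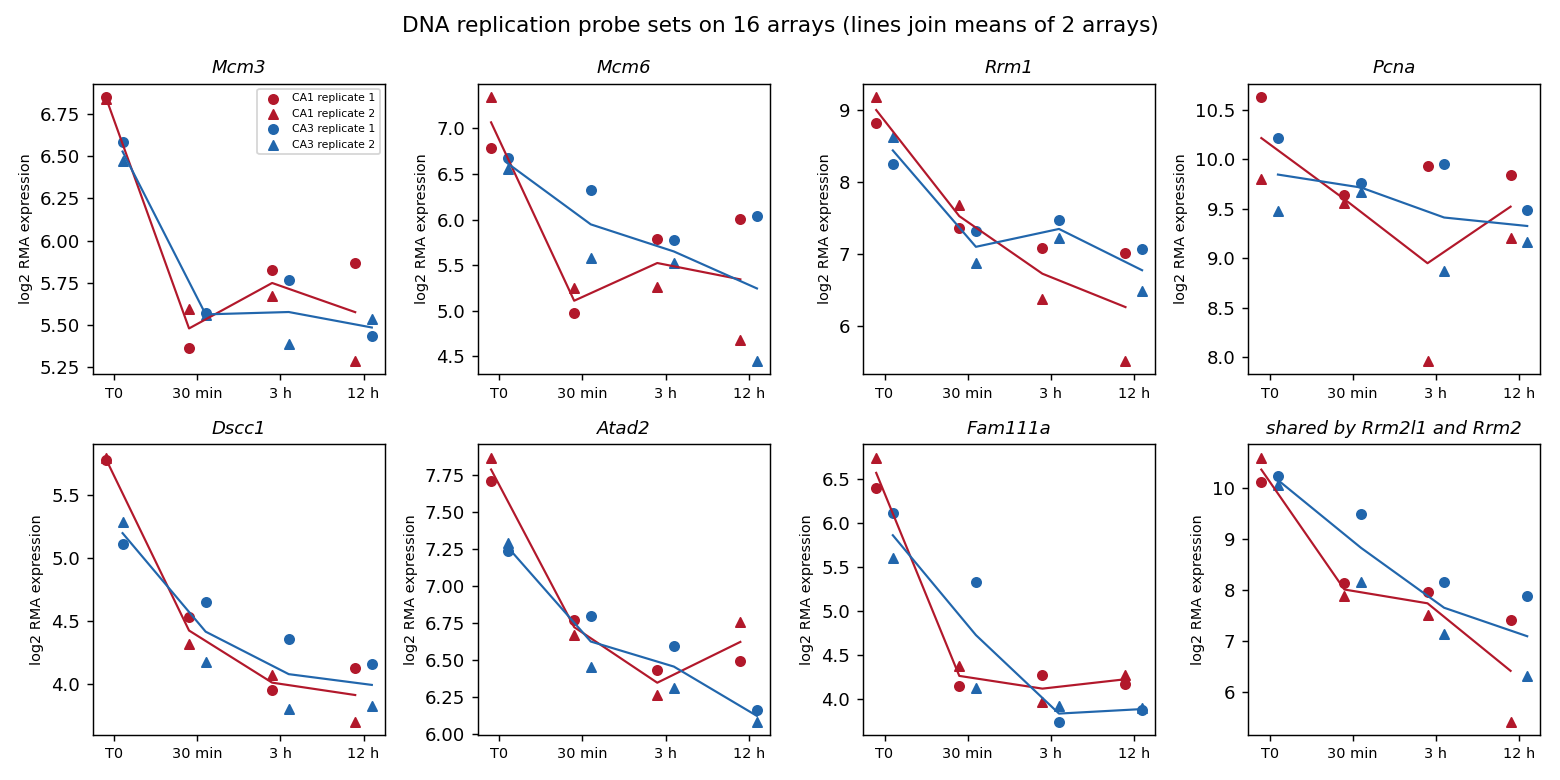
Log2 expression (y axis, RMA values) of the 7 genes and of the probe set shared by Rrm2l1 and Rrm2 at T0, 30 min, 3 h and 12 h (x axis). Each point is 1 array, CA1 in red and CA3 in blue, circles for replicate 1 and triangles for replicate 2, and the lines join the means of 2 arrays. In every panel but that of Pcna, all later points lie below all T0 points.

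Mcm3 and Mcm6 encode subunits of the replicative helicase. Mcm3 read 6.85 and 6.84 on the CA1 arrays at T0, 5.36 and 5.60 at 30 min, 5.83 and 5.67 at 3 h and 5.87 and 5.29 at 12 h. On the CA3 arrays it read 6.59 and 6.47 at T0, 5.57 and 5.56 at 30 min, 5.77 and 5.39 at 3 h and 5.43 and 5.54 at 12 h. The later arrays of both fields overlap one another and none reaches a T0 array. Averaged over the fields, Mcm3 stood at -1.16 ± 0.15 at 30 min, -1.02 ± 0.15 at 3 h and -1.15 ± 0.15 at 12 h against T0 (moderated SE, 4 arrays against 4), or 44.6%, 49.2% and 44.9% of its T0 level. Its whole 12 h difference was thus present at 30 min (101% of it). Here and below, the SE of a difference averaged over the fields counts CA1 and CA3 arrays as independent. Arrays of the fields that share a time and a number varied together, so this SE may be too small.

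Mcm6 read 6.78 and 7.34 in CA1 at T0, 4.97 and 5.25 at 30 min, 5.78 and 5.26 at 3 h and 6.01 and 4.68 at 12 h. In CA3 it read 6.68 and 6.55 at T0, 6.32 and 5.57 at 30 min, 5.77 and 5.53 at 3 h and 6.04 and 4.45 at 12 h. At 12 h replicate 2 was the lower array in both fields, and at 30 min the first CA3 array lay close to T0. Its averaged differences were -1.31 ± 0.37, -1.25 ± 0.37 and -1.55 ± 0.37 at the 3 later times. The replicate 2 arrays of 12 h also carried a low signal from the Bacillus control transcripts that are added before labelling, 4.36 in CA1 and 4.32 in CA3, against 5.16 and 5.13 on the replicate 1 arrays of that time. With both second arrays of 30 min and of 12 h left out, the 12 h difference of Mcm6 was -0.82.

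Rrm1 encodes the large catalytic subunit of ribonucleotide reductase, which makes deoxyribonucleotides. It read 8.81 and 9.18 in CA1 at T0, 7.37 and 7.69 at 30 min, 7.08 and 6.38 at 3 h and 7.01 and 5.52 at 12 h. On the CA3 arrays it read 8.25 and 8.62 at T0, 7.32 and 6.88 at 30 min, 7.47 and 7.23 at 3 h and 7.07 and 6.49 at 12 h. The CA1 array of 12 h replicate 2 was the lowest of all. Against T0, Rrm1 stood at -1.40 ± 0.31, -1.68 ± 0.31 and -2.19 ± 0.31, so that 21.9% of the T0 level was left at 12 h. At 30 min 63.9% of the 12 h difference was present, and with the same 4 arrays left out the 12 h difference was -1.67.

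The probe set shared by Rrm2l1 and Rrm2 cannot be read as Rrm2 alone. Rrm2 encodes the small subunit of the same enzyme, which carries the radical that starts the reaction. The probe set read 10.13 and 10.61 in CA1 at T0, 8.15 and 7.88 at 30 min, 7.96 and 7.52 at 3 h and 7.41 and 5.41 at 12 h. In CA3 it read 10.25 and 10.08 at T0, 9.50 and 8.16 at 30 min, 8.16 and 7.15 at 3 h and 7.88 and 6.31 at 12 h. The group means were lower at each successive time in both fields. Against T0 it stood at -1.85 ± 0.49, -2.57 ± 0.49 and -3.52 ± 0.49, and 8.74% of the T0 level was left at 12 h. That 12 h value was the most negative of all 15866 probe sets in the average over both fields.

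Pcna encodes the sliding clamp that holds polymerases to DNA and also serves DNA repair. It was the exception among the 7. It read 10.63 and 9.80 in CA1 at T0, 9.63 and 9.56 at 30 min, 9.94 and 7.96 at 3 h and 9.84 and 9.20 at 12 h. The CA3 arrays read 10.21 and 9.48 at T0, 9.76 and 9.67 at 30 min, 9.95 and 8.88 at 3 h and 9.49 and 9.16 at 12 h. Replicate 1 was above replicate 2 in all 8 groups, and the T0 arrays overlap the later ones. Its averaged differences were -0.37 ± 0.41, -0.85 ± 0.41 and -0.61 ± 0.41, with the largest standard error of the 7 genes. The lowest Pcna values came from the 3 h replicate 2 arrays, which also had the highest difference between the 3′ and 5′ probe sets of GAPDH, a sign of shortened RNA (3.93 in both fields, against 1.98 in CA1 and 1.63 in CA3 on the replicate 1 arrays). Without these arrays the 3 h difference of Pcna was -0.087.

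Dscc1 encodes a subunit of the alternative clamp loader that acts with Chtf18 and in sister chromatid cohesion. It read 5.78 and 5.80 in CA1 at T0, 4.53 and 4.32 at 30 min, 3.95 and 4.07 at 3 h and 4.13 and 3.70 at 12 h. The CA3 values were 5.11 and 5.29 at T0, 4.66 and 4.18 at 30 min, 4.36 and 3.80 at 3 h and 4.16 and 3.83 at 12 h. The groups at T0 stood apart from all others, with CA1 above CA3. The averaged differences were -1.07 ± 0.17, -1.45 ± 0.17 and -1.54 ± 0.17. On 10 of the 12 later arrays Dscc1 lay below the lower quartile of all probe sets on that array (quartiles between 4.38 and 4.69), and on 0 of the 4 T0 arrays, so its later values lie among dim probe sets, where arrays are known to understate differences.

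Atad2 encodes a bromodomain ATPase that binds acetylated histones on newly copied chromatin and, in human cells, acts with E2F factors. It read 7.71 and 7.87 in CA1 at T0, 6.77 and 6.67 at 30 min, 6.43 and 6.26 at 3 h and 6.49 and 6.76 at 12 h. In CA3 it read 7.24 and 7.29 at T0, 6.80 and 6.46 at 30 min, 6.60 and 6.32 at 3 h and 6.16 and 6.09 at 12 h. The 2 arrays of a group lay close together, and its standard error was the smallest of the 7 genes. The averaged differences were -0.85 ± 0.13, -1.12 ± 0.13 and -1.15 ± 0.13, with 73.9% of the 12 h difference present at 30 min.

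Fam111a encodes a serine protease that, in human cells, binds PCNA and helps replication forks past proteins stuck to DNA. It read 6.40 and 6.75 in CA1 at T0, 4.16 and 4.38 at 30 min, 4.27 and 3.97 at 3 h and 4.18 and 4.28 at 12 h. The CA3 values were 6.12 and 5.61 at T0, 5.34 and 4.12 at 30 min, 3.75 and 3.93 at 3 h and 3.88 and 3.90 at 12 h. Apart from the first CA3 array of 30 min, the later values were close together. The averaged differences were -1.72 ± 0.24, -2.24 ± 0.24 and -2.16 ± 0.24, which left 22.4% of the T0 level at 12 h. On 11 of the 12 later arrays Fam111a lay below the lower quartile of its array, and on 0 of the 4 T0 arrays.

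From one later time to the next the medians were smaller and the genes went both ways. From 30 min to 3 h the median over the 7 was -0.27, with 5 lower and 2 higher, and from 3 h to 12 h it was -0.092, again with 5 lower and 2 higher. These steps rest on arrays that also chose the genes and are given without a test.

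The fields were not compared with each other to choose the genes, but the T0 arrays of both fields entered that choice. Values at T0 and differences of change between the fields are therefore not free of it. At T0 all 7 were higher in CA1 than in CA3, by 0.32 (Mcm3) to 0.71 (Fam111a) with a median of 0.52, beside 0.014 over all probe sets. In 6 of the 7, all but Pcna, both CA1 arrays lay above both CA3 arrays, against 13.3% of all probe sets. None passed over all genes: by limma 0 of the 7 had an adjusted p under 0.05 (background 0%, adjusted p = 1 for each), and 2 had an unadjusted p under 0.05, against 0.725% of all probe sets. These were Atad2 at 0.52 ± 0.18 and Dscc1 at 0.59 ± 0.24, each higher in CA1 on 2 of 2 arrays. The fit of CA1 minus CA3 differences within pairs of arrays that share a time and a number also gave 0 of 7 (background 0%), with 2 of 7 at an unadjusted p under 0.05, against 3.96% of all probe sets in that fit. Pcna at T0 rested on 1 array: without the first CA1 array it was -0.048, against 0.37 with it.

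Other values differed between the fields at T0 in the same arrays. The 9 measured neuron markers were all lower in CA1 at T0, with a median of -1.26, and their mean level was 6.38 and 5.66 on the CA1 arrays and 8.04 and 6.52 on the CA3 arrays. Of 6 progenitor markers all were higher in CA1 at T0 (median 0.20), Nes by 0.91, and of 22 mitosis genes 17 were (median 0.37), while 12 of 14 microglia markers were lower (median -0.17). By limma 0 of the genes on these 4 lists passed (1 neuron marker, 1 progenitor marker, 2 mitosis genes and 0 microglia markers at an unadjusted p under 0.05). The 4 measured markers of oligodendrocyte precursors were all lower in CA1 at T0, from -0.29 (Pdgfra) to -0.040 (Olig1). The part of cell composition in the difference of the replication genes was not tested.

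Over the 4 times together, CA1 minus CA3 ran from -0.10 (Mcm6) to 0.25 (Atad2), with 4 of 7 above 0 and 0 past the threshold by limma (background 0%) or in the pair fit (0.208%). At an unadjusted p under 0.05 there was 1 of 7, Atad2, against 3.21% of all probe sets by limma. Atad2 had the largest value, 0.25 ± 0.09 (limma adjusted p = 1, pair fit adjusted p = 0.343), and was higher in CA1 in 5 of 8 pairs. Fam111a was higher in CA1 in 7 of 8 pairs (0.22 ± 0.17, adjusted p = 1). At 30 min, 3 h and 12 h the genes went both ways, with medians of -0.083, -0.11 and 0.099. Single values were as large as at T0: Mcm6 stood at -0.84 ± 0.53 and Fam111a at -0.46 ± 0.34 at 30 min, Rrm1 at -0.62 ± 0.44 at 3 h and -0.51 ± 0.44 at 12 h, and Atad2 at 0.50 ± 0.18 at 12 h. By limma 0 of 7 passed at each time (background 0%). At an unadjusted p under 0.05 there were 0, 0 and 1 of 7 (Atad2), against 2.04%, 1.57% and 1.29% of all probe sets.

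**Figure D2:**
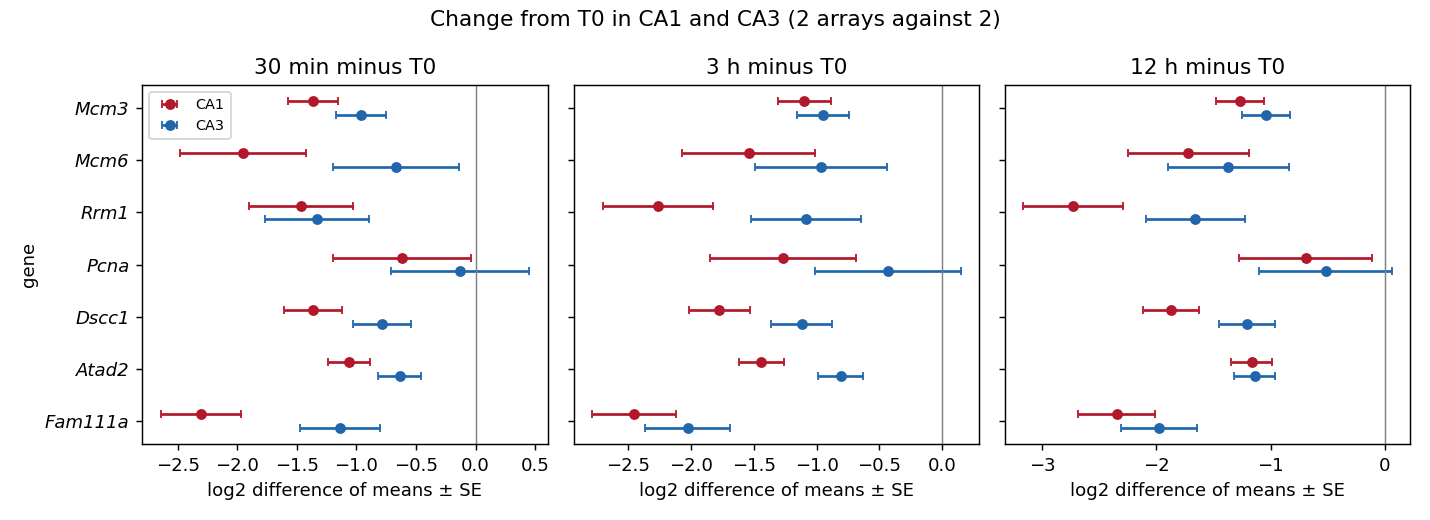
Difference from T0 on the log2 scale (x axis) of the 7 genes (y axis) at 30 min, 3 h and 12 h, in CA1 (red, upper point of each pair) and CA3 (blue). Points are differences of means of 2 arrays against 2 and bars are ± 1 moderated SE. In each panel the CA1 point lies left of the CA3 point for all 7 genes, and many bars overlap.

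Set against their own T0, the genes were further down in CA1 than in CA3, for all 7 at each later time. The median of the difference of changes was -0.49 at 30 min, -0.63 at 3 h and -0.35 at 12 h, beside -0.042, -0.018 and -0.011 over all probe sets. By limma 0 of 7 passed at any time (background 0%, adjusted p = 1 for each), and at an unadjusted p under 0.05 there were 1, 1 and 0 of 7, against 0.838%, 0.347% and 0.447% of all probe sets. The pair fit also gave 0 of 7 at each time (background 0%), with 2, 3 and 2 of 7 at an unadjusted p under 0.05, against 3.75%, 1.77% and 2.34% of all probe sets in that fit. The 3 comparisons share the T0 arrays, on which all 7 genes were higher in CA1, so their common direction is not independent between times. Those T0 arrays also entered the choice of the genes.

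The larger single differences of change lay in different genes at different times. At 30 min Mcm6 was at -1.29 ± 0.75 and Fam111a at -1.17 ± 0.48. For both the first CA3 array stood high, and without it the values were -0.91 and -0.57. At 3 h and 12 h Rrm1 was lowest, at -1.18 ± 0.62 and -1.07 ± 0.62. In CA1 Rrm1 was at -1.47, -2.26 and -2.73 against T0 over the 3 later times, and in CA3 at -1.33, -1.09 and -1.66 (SE 0.44 each). Without the second CA1 array of 12 h the last difference was -0.32.

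The 7 genes varied together. Over the 16 arrays the 21 pairs of genes correlated at a median r of 0.83, from 0.53 (Pcna with Fam111a) to 0.94 (Atad2 with Fam111a). These values hold the common step after T0. In the deviations from the 8 group means the median r was 0.38, from -0.12 (Mcm3 with Atad2) to 0.86 (Mcm6 with Rrm1), and 20 of 21 were above 0. The probe set shared by Rrm2l1 and Rrm2 followed Mcm6 (0.93), Dscc1 (0.85) and Rrm1 (0.84) in those deviations. The genes on an array share its library, its amplification and its RNA, so the coefficients are descriptions. No value for pairs of other probe sets stands beside them, so they do not show that these genes vary together more than others.

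Other genes of the pathway came from a list of 103 genes. They were not picked for how each moved, but the list was drawn up with earlier results of these data known. A probe set of their own measured 65 of them. Of these, 54 were lower at 30 min than at T0, 55 at 3 h and 58 at 12 h, in the average over both fields, with medians of -0.46, -0.48 and -0.58. By limma 0 fell at 30 min, 0 at 3 h and 10 at 12 h (background for falls 0.101%, 0.158% and 1.23%), and 0 rose at any time (background for rises 0.0063%, 0.0252% and 0.838%). At an unadjusted p under 0.05 the numbers were 27, 31 and 39 of 65, against 7.46%, 9.09% and 18.2% of all probe sets. When CA1 and CA3 arrays that share a time and a replicate number were averaged first, 0 of the 65 and 0 of all 15866 probe sets passed at any time (background 0%), with 22, 23 and 29 at an unadjusted p under 0.05, against 3.96%, 4.99% and 10.5% of all probe sets. All 65 shared the T0 arrays with the genes above, so both sets of values rest on the same baseline.

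**Figure D3:**
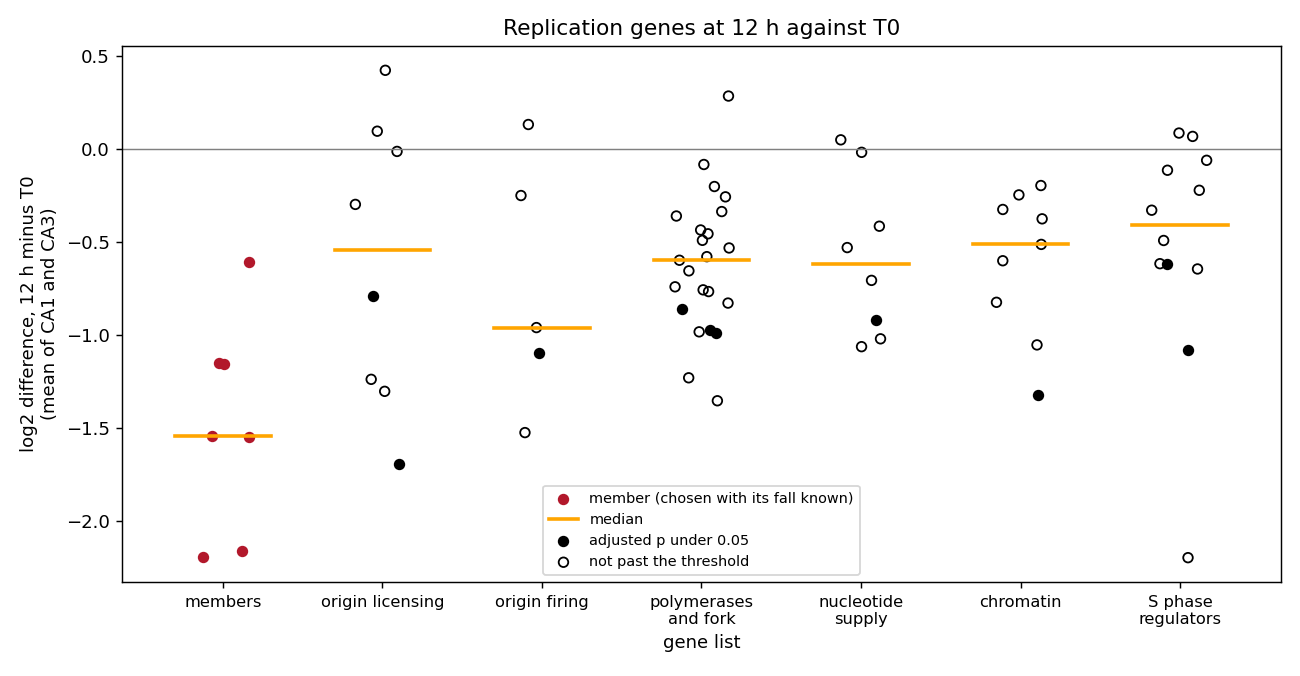
Log2 difference, 12 h minus T0 averaged over CA1 and CA3 (y axis), of the 7 genes (red, labelled members) and of 65 other replication genes in 6 lists (x axis). Filled black points have a limma adjusted p under 0.05, open points do not, and orange bars are medians. The 7 genes have a median of -1.54 and the 65 others of -0.58, with 7 of the 65 above 0.

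In the helicase and its loading factors, 2 of 8 genes fell at 12 h, Mcm5 by 1.69 ± 0.35 (adjusted p = 0.0407) and Mcm4 by 0.79 ± 0.17 (adjusted p = 0.0469). Mcm2 stood at -1.30 ± 0.50 (adjusted p = 0.197) and Mcm7 at -1.24 ± 0.43 (adjusted p = 0.156), neither past the threshold. Mcm5 had 8.26 and 8.41 in CA1 at T0, 6.46 and 6.28 at 30 min, 7.17 and 7.24 at 3 h and 6.98 and 6.19 at 12 h. In CA3 it had 7.94 and 8.20 at T0, 7.94 and 6.45 at 30 min, 7.34 and 6.79 at 3 h and 7.06 and 5.81 at 12 h. The first CA3 array of 30 min was level with T0 for Mcm5, whereas for Mcm6 that array lay close to T0 but below it.

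Of 5 measured genes on the origin firing list, Gins1, Gins3, Gins4, Timeless and Tipin, 1 fell at 12 h. This was Gins1, a subunit of the complex that activates the helicase, which fell by 1.10 ± 0.19 (adjusted p = 0.024). Of 23 polymerase and fork genes 3 fell, the primase polymerase subunit Pola1 by 0.99 ± 0.18 (adjusted p = 0.0301), the ligase of Okazaki fragments Lig1 by 0.97 ± 0.18 (adjusted p = 0.0278) and the leading strand polymerase Pole by 0.86 ± 0.15 (adjusted p = 0.024). The clamp loader subunits did not pass: Rfc1 was at -0.49 ± 0.15, Rfc2 at -0.60 ± 0.21, Rfc3 at -0.77 ± 0.19 and Rfc4 at -1.35 ± 0.36 (adjusted p from 0.0681 to 0.162). The other probe sets of Rfc1, with lower means, stood at -0.38 and 0.063. Chtf18, the partner of Dscc1, was at -0.46 ± 0.22 (adjusted p = 0.319).

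Of 8 nucleotide supply genes 1 fell, the nucleotide pool cleaner Dctpp1, by 0.92 ± 0.20 (adjusted p = 0.0478). Thymidylate synthase Tyms stood at -0.53 ± 0.21 (adjusted p = 0.201) and thymidine kinase Tk1 at -1.02 ± 0.23 (adjusted p = 0.0528). Of 9 chromatin genes 1 fell, the histone chaperone Asf1b, by 1.32 ± 0.24 (adjusted p = 0.0256). Of 12 S phase regulators 2 fell, the cyclin Ccne2 by 1.08 ± 0.17 (adjusted p = 0.0178) and the repressor E2f8 by 0.62 ± 0.13 (adjusted p = 0.0477). E2f8 was dim throughout, at 3.93 to 4.60 at T0 and 3.54 to 3.69 at 12 h. Asf1b read 4.18 to 4.81 at 12 h, near the lower quartiles of the arrays (4.38 to 4.69). The cell cycle inhibitor Cdkn1a stood at -0.22 ± 0.45 (adjusted p = 0.9). Over all 65 genes, called or not, every 12 h array lay below every T0 array for 30, against 8% of all probe sets.

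These 10 calls rest on few arrays. The count was 0 without the second CA1 array or without the second CA3 array of 12 h. It was 2 without the first or second CA1 array or the second CA3 array of T0, 4 without the first CA3 array of 12 h, and 6 without the first CA3 array of T0, either array of 3 h in either field, or the first CA1 array of 12 h. With the means of paired CA1 and CA3 arrays the count was 0 as well (smallest adjusted p by limma 0.148). It was also 0 with the Bacillus control signal as a covariate, while the GAPDH 3′ minus 5′ difference as a covariate gave 28.

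The genes whose profile over the 16 arrays was most like the mean of the 7 were Plk4, the kinase of centriole duplication (r = 0.957), the checkpoint ATPase Trip13 (0.955), the cytokinesis regulator Racgap1 (0.954), the kinase Melk (0.952) and the mitotic kinesin Kif20a (0.949). The least like were Fitm2 (-0.885), Rab11fip4 (-0.883), Ablim1 (-0.867), the growth arrest gene Gadd45g (-0.863) and Wnk2 (-0.844). From T0 through 30 min and 3 h to 12 h, Plk4 averaged 4.99, 4.06, 4.04 and 3.88, whereas Gadd45g averaged 6.13, 7.76, 8.61 and 9.54. For each gene alone the closest was Plk4 for Mcm3 (0.945), Mcm5 for Mcm6 (0.931), Fn1 for Rrm1 (0.93), Hspe1 for Pcna (0.933), Melk for Dscc1 (0.955) and for Fam111a (0.968), and Fam111a for Atad2 (0.935). The 22 mitosis genes had medians of -1.06 at 30 min, -1.41 at 3 h and -1.57 at 12 h against T0, in the same arrays. The fall of mitosis genes is a known result of these data, so it is given for its size only, without a test.

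Control signals and cell type markers moved with time beside the replication genes. The Bacillus control signal averaged 6.22 on the T0 arrays, 5.22 on those of 30 min, 5.77 on those of 3 h and 4.74 on those of 12 h, and the GAPDH 3′ minus 5′ difference ran from 1.29 to 3.93. Of 14 microglia markers 14, 11 and 13 were lower at 30 min, 3 h and 12 h than at T0, and 0, 0 and 4 fell. The mean microglia level ran from 7.81 to 8.29 at T0, from 6.76 to 8.21 at 30 min, from 6.72 to 7.99 at 3 h and from 5.98 to 7.31 at 12 h. Of 6 progenitor markers 1 fell at 30 min and at 3 h and 2 at 12 h, Nes by 1.74 and Prom1 by 1.03. The list went both ways before 12 h. Sox2 (0.031) and Fabp7 (0.33) were higher than at T0 at 30 min, with the others lower. At 3 h Sox2 (0.12), Hes5 (0.073) and Prom1 (0.17) were higher, with the others lower. The mean progenitor level ran from 7.99 to 8.36 at T0 and from 7.49 to 8.16 at 30 min. It ran from 7.67 to 8.19 at 3 h and from 7.11 to 7.62 at 12 h. Of 9 neuron markers 9, 9 and 8 were higher at the later times and 0, 0 and 2 rose, with mean levels from 5.66 to 8.04 at T0 and from 8.15 to 8.69 at 12 h. Of 4 markers of oligodendrocyte precursors 4 were lower at 12 h, with Pdgfra at -1.39 and Olig1 at -1.25. By limma 0 were past the threshold and 2 had an unadjusted p under 0.05, against 18.2% of all probe sets. At 30 min Pdgfra was at -0.18, Cspg4 at -0.19, Olig1 at 0.014 and Cacng4 at -0.18. At 3 h Cacng4 was at 0.075 and the others were lower, with Pdgfra at -0.58 and Olig1 at -0.59. The mean precursor level ran from 6.74 to 7.93 at T0 and from 7.09 to 7.40 at 30 min. It ran from 6.80 to 7.27 at 3 h and from 5.88 to 6.92 at 12 h. By limma the background for falls was 0.101% at 30 min, 0.158% at 3 h and 1.23% at 12 h. For rises it was 0.0063%, 0.0252% and 0.838%. With the means of paired arrays 0 of the marker calls remained. The part of these in the values of the replication genes was not tested. Averaged over the times, 4 of 4 CA1 field markers were higher in CA1 (median 0.62) and 2 of 3 CA3 markers lower (median -0.11), with 0 past the threshold, and at T0 their medians were 0.0056 and 0.0035.

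**Figure D4:**
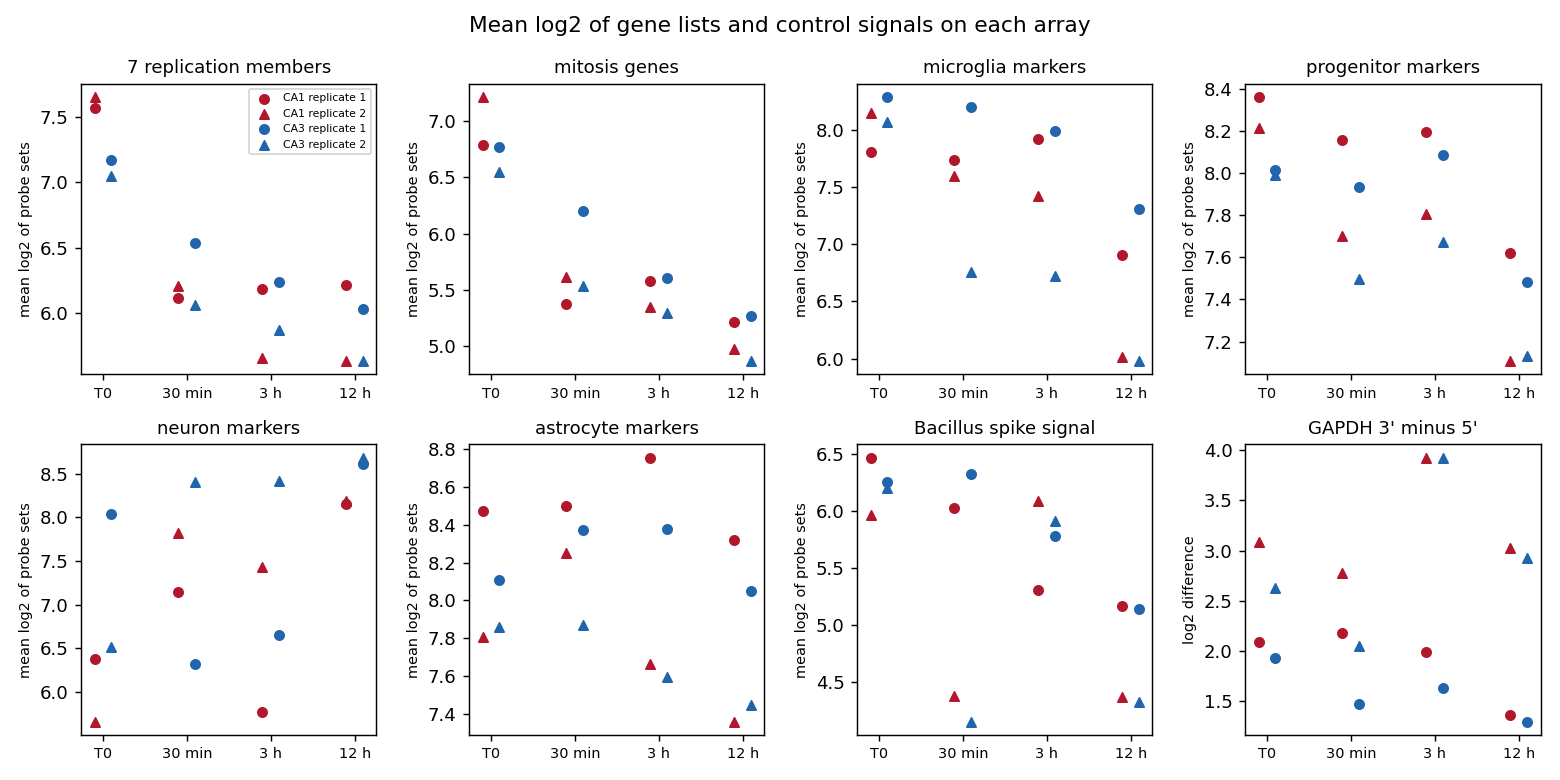
Mean log2 level of the 7 genes, of mitosis genes, of marker lists and of the Bacillus control probe sets, and the GAPDH 3′ minus 5′ difference, on each array (y axis, log2) by time (x axis). Colours and shapes are CA1 red, CA3 blue, circles replicate 1 and triangles replicate 2. The mean of the 7 genes lies between 7.04 and 7.65 at T0 and between 5.63 and 6.54 on the later arrays, while the microglia markers of T0 and 30 min overlap.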

How the data were processed

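RNA from CA1 and CA3 of rat hippocampal slice cultures was measured on 16 arrays. The authors deposited log2 expression levels of probe sets, computed with RMA according to the submitters' processing notes, whose version and settings were not given in the sources used here. RMA equalises the distribution of signals between arrays, so values are relative to the other genes of an array. Array medians ran from 5.81 to 5.94 and the 2 arrays of a group correlated at 0.911 to 0.969. The number of arrays limits the precision.

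After 57 control probe sets were set aside, 15866 were tested with limma 3.58.1 in R 4.3.3 (8 group means, 8 residual degrees of freedom, prior worth 2.55). The platform annotation gave 1 gene for 12783, several for 312 and none for 2771, and the probe set with the highest mean stood for a gene. The contrasts compared CA1 with CA3, later times with T0 (per field and averaged) and these changes between fields, with Benjamini-Hochberg adjustment over all probe sets and 0.05 as threshold. Promoters came from RefSeq (GRCr8).

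Deviations from group means correlated between CA1 and CA3 arrays that share a time and a replicate number at 0.568, 0.668, 0.58 and 0.574, so each number was read as pairing the fields within a time. Between T0 and later arrays the range was -0.236 to 0.308, which was not taken as pairing. The pair fit uses the 8 CA1 minus CA3 differences (4 residual degrees of freedom), and pair means are the 8 means.

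Genes named are the members, fixed partners (where a probe set of their own measures them), up to 10 called genes of the pathway lists at each time with the largest change, and the 5 most and 5 least alike over 16 arrays, plus the closest to each member. The members, lists and tests were chosen with earlier results of these data known. The fit was tested on simulated data. Alternatives were normalisation, a filter on dim probe sets, the variance trend, control signals as covariates, arrays left out and the replicate block.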

Additional observations from a re-analysis of the deposited data

How the results depend on the processing

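The comparisons of the fields gave 0 calls among the 7 genes under every alternative, 16 of which left out 1 array. The count of other replication genes that fell at 30 min was 4 with the GAPDH covariate or the replicate number as a block, and 0 without any 1 array. At 3 h it was 1 with cyclic loess, a variance trend or the GAPDH covariate, 6 with the replicate block and 0 to 2 without 1 array. At 12 h, against 10, it was 0 with the Bacillus control covariate, with both second arrays of 30 min and of 12 h left out or with pair means, 4 without the second arrays of 3 h, 28 with the GAPDH covariate, 24 with the replicate block and 0 to 13 without 1 array. The cause was not tested. The replicate block pairs arrays across times, which the check of pairing did not bear out for T0.

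The median of the 7 genes at 12 h was -1.15 over the 5 with a mean of at least 5 (Dscc1 and Fam111a leave by construction), -1.18 with the Bacillus control covariate, -1.20 with the second arrays of 30 min and of 12 h left out and -1.65 to -1.18 without 1 array. Without 1 array it was -1.22 to -1.12 at 30 min and -1.39 to -1.11 at 3 h.

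No value whose sign turned had passed, but not all were small. With all arrays the difference of change was -0.83 for Pcna at 3 h and -0.35 for Mcm6 at 12 h. CA1 minus CA3 of Pcna at T0 was 0.37. CA1 minus CA3 over all times turned to 0.0080 for Pcna with cyclic loess, to 0.015, 0.056 and 0.18 for Mcm6, Rrm1 and Pcna with the GAPDH covariate, to 0.032 for Pcna with the second arrays of 30 min and of 12 h left out, and to 0.021 and 0.11 for Rrm1 and Pcna without those of 3 h. The difference of change at 12 h turned to 0.0054 for Pcna with cyclic loess and to 0.11 for Mcm3 with the second arrays of 30 min and of 12 h left out. Without 1 array, CA1 minus CA3 over all times ran from -0.30 to 0.095 for Mcm6, -0.22 to 0.15 for Rrm1 and -0.25 to 0.24 for Pcna, and at T0 from -0.048 to 0.78 for Pcna. The difference of change ran from -0.35 to 0.087 for Rrm1 at 30 min, -0.34 to 0.042 for Mcm3 and -1.82 to 0.16 for Pcna at 3 h, and at 12 h from -0.52 to 0.060 for Mcm3, -1.14 to 0.44 for Mcm6, -0.59 to 0.24 for Pcna and -0.16 to 0.11 for Atad2. The averaged 12 h change of Cdkn1a ran from -0.56 to 0.12.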
